A study of Mus musculus with 20 samples.

Results

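The genes described here are 10 components of bone morphogenetic protein (BMP) signalling: the ligands Bmp2, Bmp4, Bmp5 and Bmp7, the secreted modulator Bmper, the inhibitory Smad gene Smad6, and the inhibitor-of-differentiation genes Id1, Id2, Id3 and Id4. They were taken by gene symbol from the platform annotation of the array, and all 10 were measured among 18194 genes. The list was chosen with earlier results of these data known. Counts of its genes set beside the share of all genes are therefore descriptions. Where several probe sets stood for a gene, the brightest of them on average was read. The arrays (Affymetrix MOE430v2) held 10 groups of 2: mouse ES cell lines of 129sv/Jae background (J1) that lacked Dnmt3a and Dnmt3b (Dnmt3a-/-Dnmt3b-/-, DKO) and wild-type lines (WT), each in 5 states. Undifferentiated cells are called ES, and primitive endoderm (PE) was obtained from them after 4 days with 100 nM dexamethasone (Dex). Flk1+ cells were mesoderm sorted for Flk1 and PDGFRa after 4 days on type IV collagen, and Dex- and Dex+ cells were this mesoderm after 4 further days without or with 100 nM Dex. All groups except the first replicate of each Flk1+ group carried Gata4GR, a CAG-driven fusion of Gata4 to the part of the human glucocorticoid receptor that binds its ligand, which Dex activates. Those 2 Flk1+ arrays were of the parental lines, which have no transgene. Each genotype was represented by 1 transgenic clone, so that genotype and clone cannot be told apart, and no Dex-treated cells without Gata4GR were among these arrays. On type IV collagen the study plated more DKO than WT ES cells per dish, and reports a low recovery of Flk1+ cells from DKO. It also calls this condition not stable. In the mesodermal states genotype therefore cannot be told apart from plating number and recovery either.

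BMPs are secreted ligands of the TGF-beta superfamily. They bind type I and type II receptor kinases, which phosphorylate Smad1, Smad5 and Smad9, and these enter the nucleus with Smad4. Id genes are direct targets of this signal: Id proteins lack a DNA-binding domain and bind basic helix-loop-helix proteins, which they keep from DNA. Smad6 is induced by the signal and feeds back on it, and Bmper, a chordin-like protein with von Willebrand factor C domains, binds BMPs outside the cell. In the mouse embryo Bmp4 is needed for mesoderm formation. Together with leukemia inhibitory factor (LIF), serum with BMP activity holds ES cells undifferentiated through Id genes.

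Promoter sequences from RefSeq (GRCm38.p6) matched 7 of the 10 genes. Shown are the 250 bases before the start site of Bmper and Id2, the genes with the largest gains in DKO cultured mesoderm, of Bmp4, which had the largest loss, and of Id3, which differed in PE. Capitals mark the Smad-binding letters GGCGCC and GGAGCC on either strand (GGAGCC reads GGCTCC on the other).
Bmper, chr9:23222826-23223075, plus strand: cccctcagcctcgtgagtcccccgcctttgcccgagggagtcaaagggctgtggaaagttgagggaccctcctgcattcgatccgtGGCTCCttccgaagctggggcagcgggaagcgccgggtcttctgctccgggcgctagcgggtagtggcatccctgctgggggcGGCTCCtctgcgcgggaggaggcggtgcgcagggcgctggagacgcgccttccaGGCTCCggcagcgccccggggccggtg
Bmp4, chr14:46390670-46390919, minus strand: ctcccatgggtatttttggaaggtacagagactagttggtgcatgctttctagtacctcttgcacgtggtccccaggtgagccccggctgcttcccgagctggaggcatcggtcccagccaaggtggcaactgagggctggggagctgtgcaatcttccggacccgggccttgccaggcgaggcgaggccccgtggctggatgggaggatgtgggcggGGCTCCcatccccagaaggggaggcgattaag
Id2, chr12:25096093-25096342, minus strand: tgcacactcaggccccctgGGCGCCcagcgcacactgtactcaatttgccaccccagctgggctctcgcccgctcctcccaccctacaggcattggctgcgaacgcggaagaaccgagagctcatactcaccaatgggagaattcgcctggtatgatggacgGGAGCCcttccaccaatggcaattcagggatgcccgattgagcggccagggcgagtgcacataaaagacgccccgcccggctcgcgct
Id3, chr4:136143572-136143821, plus strand: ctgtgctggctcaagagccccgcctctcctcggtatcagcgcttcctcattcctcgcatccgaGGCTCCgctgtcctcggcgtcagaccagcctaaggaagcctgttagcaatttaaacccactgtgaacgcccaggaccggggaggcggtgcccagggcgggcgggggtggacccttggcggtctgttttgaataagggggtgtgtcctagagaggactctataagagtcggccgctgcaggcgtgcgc
Bmper held 3 such matches, Id2 2, and Bmp4 and Id3 1 each. Of the 7 promoters 6 held at least 1, as did 31.7% of all 32851 promoters of this length, and Bmp5 held none. GATA with A or T before it and A or G after it, the letters that GATA factors bind, was on neither strand in any of the windows (0 of 7), and was in 26.5% of all promoters. The letters CANNTG, the core that basic helix-loop-helix proteins bind, were in the windows of Bmp4 and Id2 and in 66.2% of all. The 7 windows held 4 (Bmp5) to 35 (Id4) CpG dinucleotides, with 24 in Bmper, 18 in Id2, 18 in Id3 and 11 in Bmp4, against a median of 6 over all promoters. The 6 windows with a Smad-binding match were 62.8% (Id2 and Id3) to 75.6% (Id4) G or C, and that of Bmp5 was 42.8%. The Smad-binding letters are rich in G and C and the GATA letters in A and T. The shares of all promoters were not matched for this. A match is a description of the letters, and methylation and binding were not measured by these arrays.

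Values are log2 RMA values, so that a difference of 1 is 2-fold, and the number of arrays limits the precision. The 2 arrays of a group correlated at 0.979 to 0.996. They were least alike in WT and DKO Flk1+ cells, where the parental line and the transgenic clone also differed, and where 3 of the 10 genes in DKO and 4 in WT were at least 2-fold apart between the arrays. Each scan day held as many DKO as WT arrays of a state. All PE, Dex- and Dex+ arrays shared 1 chip lot, and ES cells were on other lots. In Flk1+ cells the parental lines were on a lot of the ES cells and the clones on that of the cultures. A block for chip lot therefore cannot be told apart from the line in comparisons between states on different lots. Dnmt3a and Dnmt3b were lower in DKO than in WT ES, PE, Flk1+ and Dex- cells, and did not pass in Dex+ cells. All 4 ES cell markers were lower in PE than in ES cells, all 7 PE markers higher in DKO PE than in DKO ES cells, and all 5 mesoderm markers, Kdr (Flk1) and Pdgfra among them, higher in Flk1+ than in ES cells. Kdr and Pdgfra encode the proteins used for the sort, so that they do not test its outcome. Pdgfra was also high in PE (13.4 in DKO and 13.19 in WT). In DKO Dex+ cells, which came from sorted mesoderm, 1 of the 7 PE markers passed against DKO PE, and was lower. The 4 endothelial markers averaged 4.41 to 5.22 in every array. In bulk RNA, fewer cells of a type and less RNA per cell cannot be told apart.

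**Figure D1:**
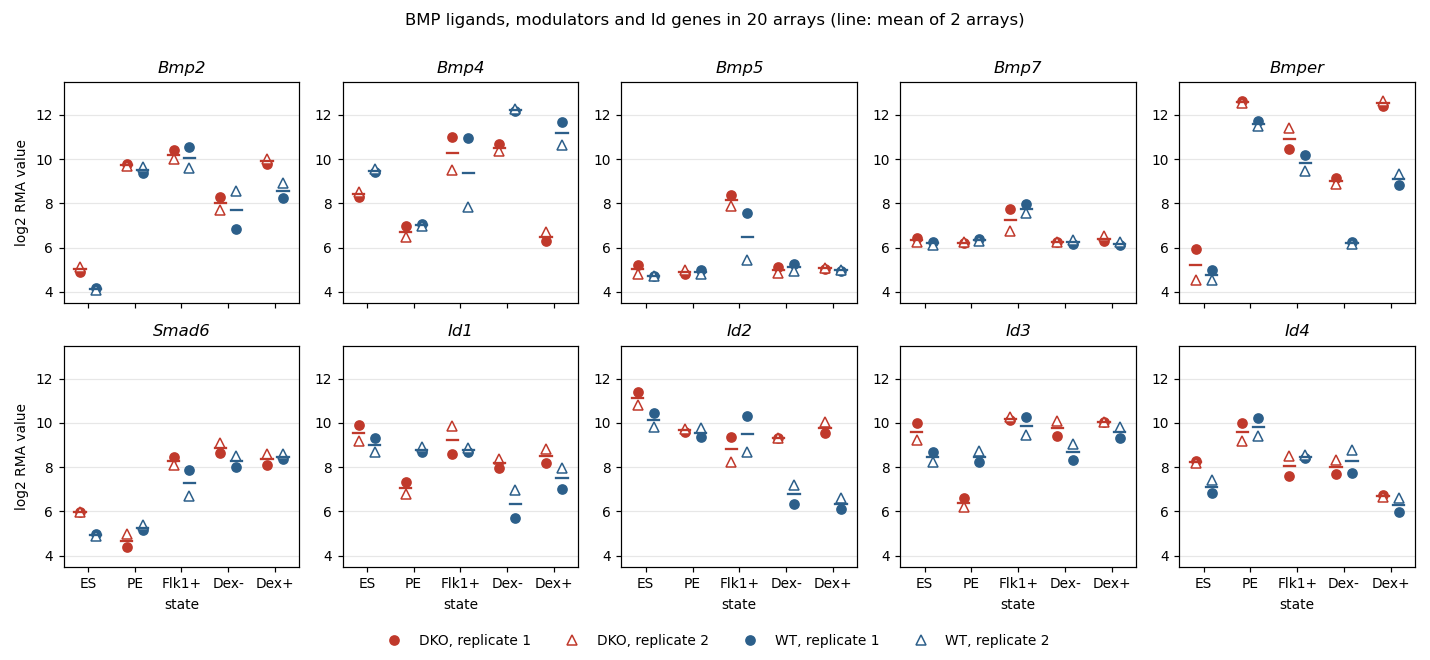
Log2 RMA values (vertical axis) of the 10 genes in 5 states (horizontal axis), with DKO left of WT. Circles are replicate 1, triangles replicate 2 and lines the means of 2 arrays. Bmp4 lies at 6.29 and 6.71 in DKO Dex+ cells, below every WT Dex+ and Dex- array, and Bmper at 12.40 and 12.64, above them.

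Between DKO and WT cells the 10 genes passed mainly after further culture. There Bmper and Id2 were higher in DKO with and without Dex, and Bmp4 was lower with Dex. A gene passed where limma's p, after Benjamini-Hochberg adjustment over all genes, was under 0.05 and the change at least 2-fold. In DKO ES cells 0 of the 10 passed against WT ES cells (1.39% of all genes did, 1.12% higher and 0.269% lower). With the replicate number as a block 3 passed there, Id3 (1.14, adjusted p = 0.0369), Id4 (1.12, adjusted p = 0.0307) and Smad6 (1.04, adjusted p = 0.0148), all with the larger value in DKO. In DKO PE 1 was lower, Id3 (1.96% of all genes passed, 1.13% higher and 0.824% lower), and in DKO Flk1+ cells 0 passed (0.698%, 0.396% higher and 0.302% lower). In DKO Dex- cells 3 were higher and 0 lower, Bmper, Id1 and Id2, against 5.84% of all genes (3.51% higher and 2.34% lower). In DKO Dex+ cells 3 were higher, Bmp2, Bmper and Id2, and 1 was lower, Bmp4, against 9.65% (4.81% higher and 4.83% lower). The median change of the 10 genes was 0.44 in each of these cultures, and that of all genes was -0.03 in Dex- and 0.00 in Dex+ cells. For the 10 genes it was 0.72 in ES cells, -0.17 in PE and 0.39 in Flk1+ cells. The medians thus did not set the cultures apart from ES and Flk1+ cells.

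**Figure D2:**
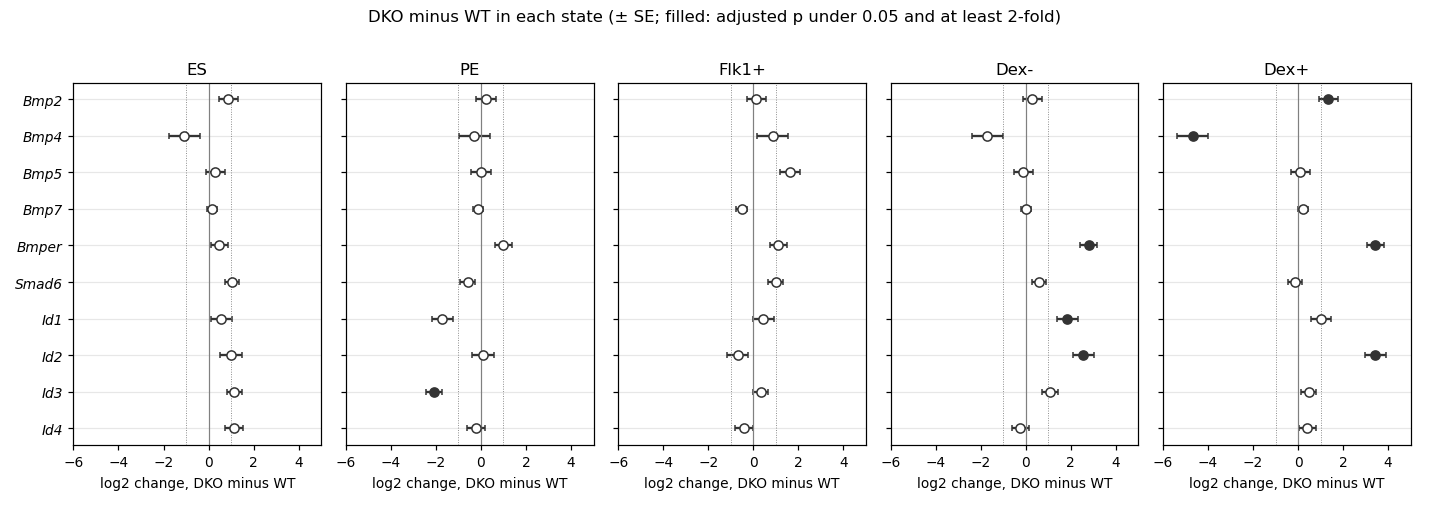
Log2 change of DKO against WT cells (horizontal axis) for the 10 genes in each state, with the standard error of the model. Filled points passed (adjusted p under 0.05 and at least 2-fold, dotted lines): 0 in ES and Flk1+ cells, 1 in PE, 3 in Dex- and 4 in Dex+ cells.

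Between states more of the genes moved. From ES cells to PE, 3 rose and 4 fell in DKO (16.3% of all genes passed, 8.13% higher and 8.18% lower). In WT 3 rose and 1 fell (14.2%, 7.68% higher and 6.55% lower). In Flk1+ against ES cells 4 rose and 1 fell in DKO (10.2%, 4.56% higher and 5.62% lower). In WT 7 rose and 0 fell (12.5%, 6.15% higher and 6.30% lower), so that risers outnumbered fallers among the 10 genes there. In Dex- against Flk1+ cells 0 rose and 3 fell in DKO (16.6%, 8.23% higher and 8.39% lower), and 1 rose and 7 fell in WT (15.3%, 7.49% higher and 7.79% lower). Dex in cultured mesoderm raised 2 and lowered 2 in DKO (9.63%, 4.64% higher and 4.99% lower), and raised 1 and lowered 1 in WT (1.60%, 1.15% higher and 0.451% lower). Dex+ cells against PE had 2 higher and 1 lower in DKO (4.47%, 2.73% higher and 1.74% lower), and 3 higher and 3 lower in WT (12.3%, 6.13% higher and 6.20% lower). The comparisons that share ES, Flk1+ or Dex- arrays are not independent of each other.

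Among the ligands, Bmp2, which acts in heart and endoderm development, was lowest in ES cells. DKO ES cells had 4.90 and 5.14, against 4.19 and 4.09 in WT ES cells. PE had 9.80 and 9.70 in DKO and 9.37 and 9.66 in WT, and Flk1+ cells 10.40 and 9.99 in DKO and 10.54 and 9.61 in WT. Every PE and Flk1+ array thus lay over 4 log2 units above every ES array. PE exceeded ES cells by 4.73 ± 0.43 in DKO (26.6-fold, adjusted p = 7.22e-07) and 5.38 ± 0.43 in WT (41.6-fold, adjusted p = 2.83e-07), where ± is the standard error. Flk1+ exceeded ES cells by 5.18 in DKO and 5.93 in WT. At the top of the order of group means, DKO Flk1+, WT Flk1+ and DKO Dex+ cells each overlapped with the next group, the last of them with DKO PE. DKO Flk1+ cells did not overlap with DKO PE, nor DKO PE with WT PE.

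Without Dex Bmp2 fell in culture in both genotypes, and Dex raised it in DKO cells. Dex- cells had 8.31 and 7.69 in DKO and 6.84 and 8.57 in WT, a decrease from Flk1+ cells of -2.20 in DKO (adjusted p = 0.000949) and -2.37 in WT (adjusted p = 0.000569). The WT Dex- arrays were 1.73 apart, and the WT decrease did not pass when only these groups were fitted. Dex+ cells had 9.80 and 10.03 in DKO and 8.25 and 8.91 in WT. The 2 DKO arrays lay above both WT arrays. Dex+ exceeded Dex- cells by 1.92 ± 0.43 in DKO (adjusted p = 0.00474), and the change was 0.88 in WT (adjusted p = 0.449). The DKO Dex response did not pass without DKO Dex- replicate 2. The WT response was 1.74 (adjusted p = 0.025) without WT Dex- replicate 2 and 0.01 within the scan day. The difference of these responses was 1.04 ± 0.61 (adjusted p = 0.416), and it passed without WT Dex- replicate 1 (1.90, adjusted p = 0.0337). DKO Dex+ cells exceeded WT Dex+ cells by 1.34 ± 0.43 (2.53-fold, adjusted p = 0.0407), a call that was lost when any of the 4 arrays was left out.

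Bmp4, the ligand that induces mesoderm, had the largest difference between DKO and WT cells among the 10 genes. In Dex+ cells it stood at 6.29 and 6.71 in DKO and at 11.70 and 10.65 in WT, and the groups did not overlap. DKO cells were lower by -4.67 ± 0.69 (25.5-fold, adjusted p = 0.000184). In Dex- cells it had 10.67 and 10.38 in DKO and 12.20 and 12.25 in WT. All 4 Dex- arrays thus were above the DKO Dex+ arrays, and the WT ones were the highest of the 20. The difference in Dex- cells was -1.70 ± 0.69 (adjusted p = 0.135) and passed with the replicate number (adjusted p = 0.0108) or the chip lot (adjusted p = 0.00481) as a block. It also passed when only these groups were fitted (adjusted p = 0.000901). The standard error draws on all groups, and the Bmp4 arrays were furthest apart in Flk1+ cells (SD 2.2 in WT and 1.03 in DKO).

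Dex lowered Bmp4 in DKO mesoderm by -4.03 ± 0.69 (16.3-fold, adjusted p = 0.000648), and the change in WT was -1.05 ± 0.69 (adjusted p = 0.651). The difference between these responses was -2.97 ± 0.97 (adjusted p = 0.0886), so that it did not pass, and with the replicate number as a block its adjusted p was 0.00558. When only these groups were fitted, its adjusted p was 0.00374. Against the Dex- array of the same scan day the Dex responses were -3.88 in DKO and -1.08 in WT. DKO Dex+ cells stood at the level of DKO PE (-0.22 ± 0.69, adjusted p = 0.936), while WT Dex+ cells exceeded WT PE by 4.16 ± 0.69 (adjusted p = 0.000342). Beside these values, 5 of 7 PE markers were higher and 3 of 4 mural markers lower in DKO than in WT Dex+ cells. The PE markers averaged 12.03 and 12.13 in DKO Dex+ arrays and 9.75 and 10.09 in WT Dex+ arrays, and the mural markers 9.64 and 9.0 in DKO and 10.92 and 11.04 in WT. Their part in the Bmp4 difference was not tested.

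In ES cells Bmp4 had 8.30 and 8.52 in DKO and 9.42 and 9.54 in WT (-1.07 ± 0.69, adjusted p = 0.654). This difference passed when only the ES cell groups were fitted (adjusted p = 0.0127). PE had 6.96 and 6.49 in DKO and 7.06 and 6.97 in WT, below every ES array. The change from ES cells to PE was -1.69 in DKO (adjusted p = 0.0744) and -2.47 in WT (adjusted p = 0.013). The DKO change passed when only these groups were fitted (adjusted p = 0.000134). The WT call was lost without any 1 of its 4 arrays and with the chip lot as a block (-0.10). For this step the lot block rests on the gap between parental lines and clones in Flk1+ cells. In Flk1+ cells the parental lines had 10.99 in DKO and 10.95 in WT, but the transgenic clones had 9.53 in DKO and 7.84 in WT. The mean of WT Flk1+ cells therefore depended on the line: against WT ES cells it was -0.09 with both arrays, 1.47 (adjusted p = 0.0321) without the transgenic clone and -1.64 (adjusted p = 0.019) without the parental line. The change from Flk1+ to Dex- cells was 0.27 in DKO (adjusted p = 0.827) and 2.83 ± 0.69 in WT (adjusted p = 0.00526), and the WT call was lost without the transgenic clone (1.28, adjusted p = 0.0601). The DKO change was 1.41 with the chip lot as a block (adjusted p = 0.0129).

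Bmp5 and Bmp7, ligands of the same subgroup, were high in Flk1+ mesoderm alone among the 5 states. Bmp5 stood at 8.39 and 7.88 in DKO Flk1+ cells and 7.56 and 5.45 in WT Flk1+ cells, and at 4.71 to 5.26 in the other 16 arrays. Flk1+ exceeded ES cells by 3.12 ± 0.43 in DKO (8.69-fold, adjusted p = 8.58e-05) and 1.79 ± 0.43 in WT (3.47-fold, adjusted p = 0.00569). Culture without Dex lowered it by -3.13 in DKO and -1.40 in WT, and both WT calls were lost without the parental line. Both were also lost when only the groups compared were fitted. The WT culture call was further lost with the chip lot as a block and without either WT Dex- array. The DKO arrays were above both WT arrays in Flk1+ cells, with a difference of 1.63 ± 0.43 (adjusted p = 0.0901). It passed with the replicate number as a block (adjusted p = 0.0168). The transgenic clones, with 1 array per genotype, differed by 2.42, and the parental lines, also with 1 array each, by 0.83. A second probe set of Bmp5 ranged more widely, with changes from ES to Flk1+ cells of 7.12 in DKO and 5.03 in WT.

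Bmp7 stood at 7.74 and 6.76 in DKO Flk1+ cells and at 7.97 and 7.57 in WT Flk1+ cells, and at 6.10 to 6.51 in the other 16 arrays. Flk1+ exceeded ES cells by 0.90 ± 0.23 in DKO (1.87-fold, adjusted p = 0.011), under the 2-fold limit, and by 1.58 ± 0.23 in WT (2.99-fold, adjusted p = 0.000122). Culture without Dex changed it by -0.99 in DKO (adjusted p = 0.00363), under the 2-fold limit, and lowered it by -1.53 in WT (adjusted p = 0.000133). The order of genotypes was thus the opposite of that of Bmp5, and the Flk1+ difference of Bmp7 did not pass (-0.52 ± 0.23, adjusted p = 0.347). These values depended on the DKO line. Without the DKO parental line the Flk1+ difference was -1.01 and passed (adjusted p = 0.00855), and without the DKO transgenic clone the DKO changes were 1.39 (adjusted p = 8.69e-05) from ES to Flk1+ cells and -1.48 (adjusted p = 3.66e-05) in culture.

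**Figure D3:**
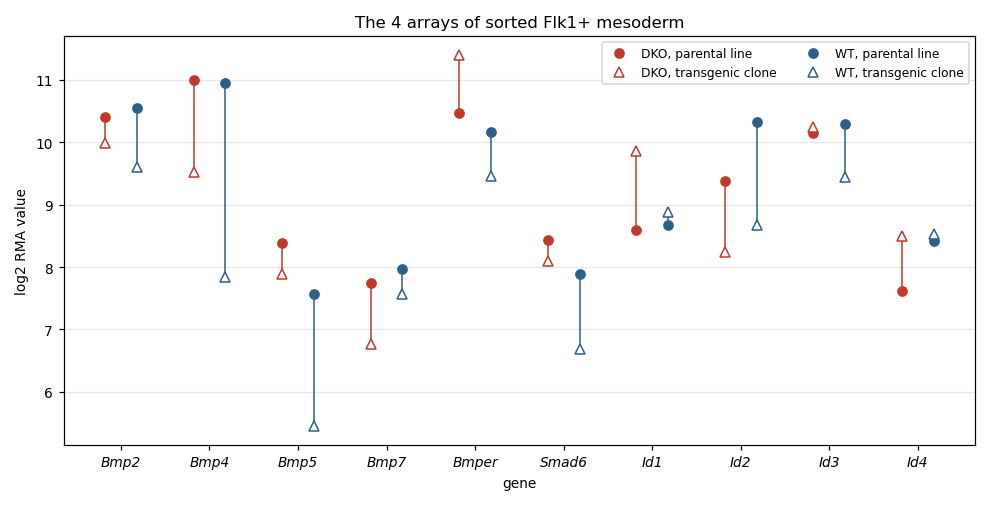
Log2 RMA values (vertical axis) of the 10 genes in the 4 arrays of sorted Flk1+ mesoderm, with DKO left of WT. Filled circles are the parental lines and open triangles the transgenic clones, joined by a line. Bmp4 lies at 10.95 in the WT parental line and 7.84 in the WT clone.

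Bmper passed in 13 of the 21 comparisons, more than any other of the 10 genes. It stood at 12.65 and 12.53 in DKO PE and 11.72 and 11.48 in WT PE. ES cells had 5.92 and 4.54 in DKO and 4.97 and 4.55 in WT, so that all PE arrays were over 5 log2 units above all ES arrays. PE exceeded ES cells by 7.36 ± 0.38 in DKO (164-fold, adjusted p = 2.26e-09) and 6.84 ± 0.38 in WT (115-fold, adjusted p = 8.85e-09). Flk1+ cells had 10.46 and 11.40 in DKO and 10.17 and 9.46 in WT, higher than ES cells by 5.70 in DKO and 5.06 in WT. PE and sorted mesoderm thus shared this change in both genotypes.

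In the cultures the genotypes were apart. Bmper had 9.14 and 8.86 in DKO Dex- cells and 6.25 and 6.16 in WT Dex- cells, without overlap. DKO exceeded WT cells by 2.80 ± 0.38 (6.95-fold, adjusted p = 0.00018). With Dex it had 12.40 and 12.64 in DKO and 8.85 and 9.35 in WT, a difference of 3.42 ± 0.38 (10.7-fold, adjusted p = 1.31e-05). Within scan days the Dex- difference was 2.70 and 2.89. The fall from Flk1+ to Dex- cells was -1.93 in DKO (adjusted p = 0.00108) and -3.61 in WT (adjusted p = 4.62e-06), and their difference was 1.69 ± 0.54 (adjusted p = 0.12). This difference passed with the chip lot as a block (adjusted p = 0.0432). Without DKO Flk1+ replicate 2 it was 2.15, but DKO Flk1+ cells were then read by the parental line alone. The transgenic clones were further apart before culture than the parental lines, as given below. Dex raised Bmper in both genotypes, by 3.52 ± 0.38 in DKO (adjusted p = 1.02e-05) and 2.90 ± 0.38 in WT (adjusted p = 0.000457), with a difference of 0.62 ± 0.54 (adjusted p = 0.655). The genotypes thus differed in the parallel culture without Dex, and the Dex response itself was not shown to differ. In Flk1+ cells the difference was 1.11 ± 0.38 (adjusted p = 0.201). It was 1.93 between the transgenic clones, which carry Gata4GR as the cultures do, and 0.29 between the parental lines. A difference before culture is therefore not excluded. In Dex- cells 0 of 7 PE markers passed between DKO and WT, with averages of 9.12 and 8.89 in DKO arrays and 8.60 and 8.98 in WT arrays, while 2 of 4 mural markers, 2 of 4 ES cell markers and Pdgfra were higher in DKO. Their part in the Bmper difference was not tested. DKO Dex+ cells reached the level of DKO PE (-0.07 ± 0.38, adjusted p = 0.967), and WT Dex+ cells were below WT PE by -2.50 ± 0.38 (adjusted p = 0.000166).

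Smad6, whose protein blocks BMP receptors and Smad1, was low in ES cells and PE and high in mesoderm and its cultures. ES cells had 5.97 and 5.97 in DKO and 4.97 and 4.89 in WT. PE had 4.38 and 4.97 in DKO and 5.16 and 5.38 in WT, and Flk1+ cells 8.44 and 8.10 in DKO and 7.88 and 6.69 in WT. All Flk1+ arrays were above all ES and PE arrays. Flk1+ exceeded ES cells by 2.30 ± 0.32 in DKO (4.94-fold, adjusted p = 9.38e-05) and 2.36 ± 0.32 in WT (5.12-fold, adjusted p = 5.87e-05). Dex- cells had 8.64 and 9.11 in DKO and 8.03 and 8.52 in WT, and Dex+ cells 8.11 and 8.59 in DKO and 8.37 and 8.59 in WT. In the model without a block no difference between the genotypes passed in any state, while the ES cell difference passed with the replicate number, the scan day (adjusted p = 0.0382) or the chip lot (adjusted p = 0.0445) as a block. Dex changed it by -0.53 in DKO (adjusted p = 0.33) and 0.21 in WT (adjusted p = 0.922). It stayed above PE in Dex+ cells by 3.67 in DKO (adjusted p = 3.31e-06) and 3.21 in WT (adjusted p = 3e-06). In the PE step Smad6 fell in DKO (-1.29, adjusted p = 0.00538), and the change in WT was 0.34 (adjusted p = 0.489). The DKO call was lost with the chip lot as a block (-0.54, adjusted p = 0.36) and without DKO PE replicate 1 (-0.99, adjusted p = 0.0754). The difference of the PE steps was -1.63 ± 0.45 (adjusted p = 0.123, and 0.0109 with the replicate number as a block).

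The Id genes, the targets of the signal, did not move as a group. Id3 was the member that set DKO PE apart. It stood at 6.62 and 6.18 in DKO PE and at 8.24 and 8.71 in WT PE, and DKO PE was lower by -2.08 ± 0.34 (4.23-fold, adjusted p = 0.00244). The difference was -1.63 on the first scan day and -2.53 on the second. ES cells had 9.98 and 9.21 in DKO and 8.69 and 8.23 in WT. PE was lower than ES cells by -3.20 ± 0.34 in DKO (9.2-fold, adjusted p = 3.9e-06), and the change in WT was 0.02 (adjusted p = 0.985). The difference of the 2 steps was -3.22 ± 0.48 (adjusted p = 0.00241) and passed without any 1 of the 8 arrays.

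Id1 ran alongside Id3 in this step without passing in the direct comparison. It had 7.33 and 6.80 in DKO PE and 8.67 and 8.90 in WT PE (-1.71 ± 0.46, adjusted p = 0.0568, and 0.00527 with the replicate number as a block). ES cells had 9.92 and 9.20 in DKO and 9.30 and 8.69 in WT. Id1 fell in the PE step in DKO by -2.49 ± 0.46 (adjusted p = 6e-04), and the change in WT was -0.22 (adjusted p = 0.787). The difference of the steps was -2.28 ± 0.65 (adjusted p = 0.143, and 0.0135 with the block). Beside these PE results, 3 of 4 ES cell markers (Pou5f1, Sox2 and Nanog) were lower in DKO than in WT PE. The list averaged 7.01 and 6.76 in DKO PE arrays and 9.42 and 9.27 in WT PE arrays, while 0 of 7 PE markers passed. Its part in the Id1 and Id3 values was not tested.

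In the mesodermal states Id3 was at 8.32 or above in every array. Flk1+ cells had 10.15 and 10.25 in DKO and 10.29 and 9.45 in WT, Dex- cells 9.42 and 10.09 in DKO and 8.32 and 9.03 in WT, and Dex+ cells 10.04 and 10.06 in DKO and 9.33 and 9.83 in WT. The difference in Dex- cells was 1.08 ± 0.34 (adjusted p = 0.0522, and 0.0138 with the replicate number as a block), and that in Dex+ cells 0.47 (adjusted p = 0.451). DKO Dex+ cells exceeded DKO PE by 3.65 ± 0.34 (12.6-fold, adjusted p = 6.46e-06). Among the 10 genes Smad6 was also higher and Id4 lower in DKO Dex+ cells than in DKO PE. The change of Id1 was 1.45 (adjusted p = 0.0729), which passed with the scan day (adjusted p = 0.0461) or the chip lot (adjusted p = 0.0342) as a block and with only these groups fitted (adjusted p = 0.00983). WT Dex+ cells exceeded WT PE by 1.10 ± 0.34 (adjusted p = 0.029), a call lost without WT PE replicate 1 (0.87, adjusted p = 0.209), without WT Dex+ replicate 2 (0.85, adjusted p = 0.235) and with the scan day as a block (0.92, adjusted p = 0.0937).

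Id2 differed in both cultures. It stood at 9.33 and 9.34 in DKO Dex- cells and at 6.34 and 7.21 in WT Dex- cells, a difference of 2.56 ± 0.47 (5.9-fold, adjusted p = 0.00202). It had 9.53 and 10.03 in DKO Dex+ cells and 6.11 and 6.60 in WT Dex+ cells, a difference of 3.43 ± 0.47 (10.8-fold, adjusted p = 9.74e-05). The WT cultures were the lowest 4 of the 20 arrays. Flk1+ cells had 9.37 and 8.24 in DKO and 10.32 and 8.68 in WT, with overlapping arrays. Culture without Dex changed Id2 by 0.53 in DKO (adjusted p = 0.46) and lowered it by -2.72 ± 0.47 in WT (adjusted p = 0.000396). The DKO change passed with the chip lot as a block (1.23, adjusted p = 0.00517) and without the parental lines (1.10, adjusted p = 0.0342). The difference of the culture steps was 3.25 ± 0.67 (adjusted p = 0.0128), and it did not pass without WT Dex- replicate 1 (2.82, adjusted p = 0.065) or when only these groups were fitted. Dex changed Id2 by 0.45 in DKO (adjusted p = 0.648) and -0.42 in WT (adjusted p = 0.864). A second, dimmer probe set of Id2 differed by 1.12 in Dex- cells (adjusted p = 0.0767) and 0.95 in Dex+ cells (adjusted p = 0.111), and the dimmest ranged over 0.62 log2 units in all.

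Id2 had its highest group mean in each genotype in ES cells, with 11.41 and 10.82 in DKO and 10.43 and 9.80 in WT, and PE had 9.59 and 9.73 in DKO and 9.36 and 9.76 in WT. Both the PE step (-1.46, adjusted p = 0.0263) and the Flk1+ step (-2.31, adjusted p = 0.00228) lowered it in DKO, the changes in WT being -0.55 and -0.62. Without the parental line the WT Flk1+ change was -1.44 and passed (adjusted p = 0.0303). The DKO PE call was lost with the chip lot as a block (-0.37, adjusted p = 0.567). The difference of the Flk1+ steps was -1.69 ± 0.67 (adjusted p = 0.369, and 0.0177 with the replicate number as a block).

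Id1 shared the culture difference of Id2. Dex- cells had 7.98 and 8.36 in DKO and 5.70 and 6.95 in WT (1.85 ± 0.46, 3.6-fold, adjusted p = 0.0149), and Dex+ cells 8.21 and 8.82 in DKO and 7.02 and 7.97 in WT (1.02 ± 0.46, adjusted p = 0.157, and 0.0212 with the replicate number as a block). DKO arrays were above both WT arrays in each culture. The Dex- call was lost without WT Dex- replicate 1 (1.22, adjusted p = 0.191) or DKO Dex- replicate 2 (1.66, adjusted p = 0.113). Flk1+ cells had 8.59 and 9.86 in DKO and 8.67 and 8.88 in WT, and culture changed Id1 by -1.05 in DKO (adjusted p = 0.0999) and lowered it by -2.45 ± 0.46 in WT (adjusted p = 0.000773). The DKO change passed without the DKO parental line (-1.68, adjusted p = 0.0202) and with the chip lot as a block (-1.42, adjusted p = 0.0242), and the difference of the culture steps was 1.40 ± 0.65 (adjusted p = 0.356).

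Id4 was the Id gene that was high in PE. It stood at 9.98 and 9.20 in DKO PE and 10.23 and 9.40 in WT PE, while DKO ES cells had 8.29 and 8.19 and WT ES cells 6.83 and 7.41. PE exceeded ES cells by 1.35 ± 0.39 in DKO (adjusted p = 0.0152) and 2.69 ± 0.39 in WT (6.45-fold, adjusted p = 0.000101). The DKO call was lost with the chip lot as a block (0.98, adjusted p = 0.256) and without DKO ES replicate 1 (1.40), DKO ES replicate 2 (1.30) or DKO PE replicate 1 (0.96). In mesoderm the opposite was seen with Dex. Dex+ cells had 6.75 and 6.65 in DKO and 5.98 and 6.62 in WT, and Dex- cells 7.71 and 8.33 in DKO and 7.75 and 8.77 in WT. Dex lowered Id4 by -1.32 ± 0.39 in DKO (adjusted p = 0.0287) and -1.97 ± 0.39 in WT (3.91-fold, adjusted p = 0.0141), although each call was lost without some of the single arrays. Flk1+ cells had 7.62 and 8.49 in DKO and 8.42 and 8.53 in WT. In the model without a block no difference between the genotypes passed in any state, and with the replicate number as a block Id4 passed in ES cells, as given above.

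The same agent and transgene were used in ES cells and in mesoderm, so that the PE step (PE minus ES cells) and the Dex step (Dex+ minus Dex- cells) can be set side by side. In DKO cells 3 of the 10 genes had a higher and 3 a lower Dex step than PE step (19.7% of all genes passed, 10.2% higher and 9.45% lower), and in WT cells 0 had a higher and 3 a lower one (14.8%, 7.48% higher and 7.27% lower). Bmper rose in both steps in both genotypes, but less in mesoderm, by -3.84 ± 0.54 in DKO (adjusted p = 9.85e-05) and -3.95 ± 0.54 in WT (adjusted p = 0.000115). Bmp2 likewise had a smaller Dex step, by -2.81 ± 0.61 in DKO (adjusted p = 0.00278) and -4.50 ± 0.61 in WT (adjusted p = 0.000101). Id4 turned its direction, with differences of -2.67 ± 0.56 in DKO (adjusted p = 0.0023) and -4.65 ± 0.56 in WT (adjusted p = 4.11e-05). In DKO cells the Dex step exceeded the PE step for Id3 (3.49 ± 0.48, adjusted p = 8.93e-05), Id1 (2.83 ± 0.65, adjusted p = 0.00433) and Id2 (1.90 ± 0.67, adjusted p = 0.0464). These 3 fell in the DKO PE step and did not pass in the DKO Dex step. The same differences in WT were 0.89 for Id3 (adjusted p = 0.236), 1.38 for Id1 (adjusted p = 0.164) and 0.13 for Id2 (adjusted p = 0.929), and the genotypes were not tested against each other here. In WT Id1 passed with the chip lot as a block (2.46, adjusted p = 0.0255) and without WT Dex- replicate 2 (2.01, adjusted p = 0.049). The Id2 call was lost in 4 other settings and when any of the 8 arrays was left out. The starting levels of ES and Dex- cells differ, and the time with Dex was 4 days in both. Dex- cells were a parallel culture, but no ES cells kept 4 days without Dex were among these arrays. The PE step thus cannot tell Dex apart from the time in culture.

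**Figure D4:**
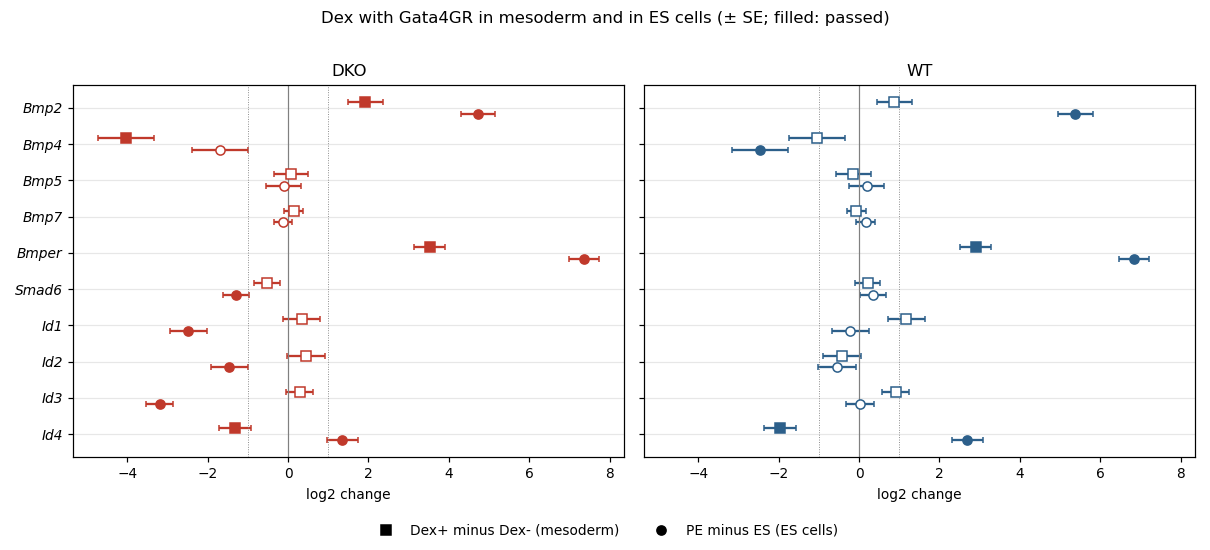
Log2 change (horizontal axis, ± standard error) in the Dex step and the PE step for the 10 genes in DKO (left) and WT (right). Squares are Dex+ minus Dex- cells, circles PE minus ES cells, and filled symbols passed. Bmper lies at 3.52 and 7.36 in DKO, and Id4 at -1.32 and 1.35.

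Between the genotypes the PE step differed for 1 gene, Id3, which was lower (1.36% of all genes passed, 0.511% higher and 0.846% lower), and the Flk1+ step for 0 (0.791%, 0.203% higher and 0.588% lower). The culture step differed for 1, Id2, which was higher (2.91%, 1.82% higher and 1.08% lower), and the Dex step for 0 (5.86%, 2.73% higher and 3.13% lower). With the replicate number as a block the counts were 3, 1, 3 and 1, the culture step adding Bmp4 (-2.57, adjusted p = 0.0199) and Bmp5 (-1.73, adjusted p = 0.0326). Without the parental lines, Bmp4 (1.69), Bmp5 (2.42), Bmper (1.93) and Smad6 (1.41) were at least 2-fold higher in DKO than in WT Flk1+ cells. Each of these then rests on 1 array per genotype, assumed to vary as the other groups do, while the parental lines differed by 0.04, 0.83, 0.29 and 0.56 in these genes.

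Of 66 other measured genes of the pathway, 0 passed between DKO and WT in ES cells and 0 in Flk1+ cells. In PE 1 was higher and 2 lower in DKO (1.96% of all genes passed), in Dex- cells 5 were higher and 1 lower (5.84%), and in Dex+ cells 2 were higher and 7 lower (9.65%). The median change of the 66 was -0.04 in Dex+ cells, and that of all genes 0.00. Follistatin (Fst), a secreted protein that binds activins and some BMPs, had the largest of these changes. Fst averaged 10.54 ± 0.19 in DKO Dex- cells and 5.52 ± 1.04 in WT Dex- cells (SD, n = 2 each), and 13.86 ± 0.29 in DKO Dex+ cells and 9.20 ± 0.33 in WT Dex+ cells. DKO exceeded WT cells by 5.02 ± 0.35 in Dex- (adjusted p = 2.36e-07) and 4.66 ± 0.35 in Dex+ cells (adjusted p = 2.81e-07). Dex raised it in both genotypes, by 3.32 in DKO and 3.68 in WT. As with Bmper, the genotypes were apart in the culture without Dex, and both were higher with it. In Flk1+ cells Fst averaged 9.75 ± 0.19 in DKO and 11.03 ± 0.42 in WT (SD, n = 2 each), a difference of -1.28 (adjusted p = 0.0976).

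Of the other 19 antagonists and modulators, Tll1, a protease that cleaves the BMP antagonist chordin, went the other way with Dex in the 2 genotypes. It averaged 3.94 ± 0.20 in DKO and 7.70 ± 1.09 in WT Dex+ cells, and 6.21 ± 0.14 in DKO and 5.85 ± 0.55 in WT Dex- cells (SD, n = 2 each). Dex lowered it in DKO (-2.27 ± 0.36, adjusted p = 0.000328) and raised it in WT (1.85 ± 0.36, adjusted p = 0.0106), and the difference of the responses was -4.12 ± 0.51 (adjusted p = 0.000135). Fstl1, a follistatin-like secreted protein, was lower in DKO Dex+ cells (-1.22, adjusted p = 0.0245), and Nog (noggin), which binds BMPs and keeps them from receptors, was higher in DKO PE (1.12, adjusted p = 0.00581). Crim1, a membrane protein with chordin-like repeats, rose in the PE step by 5.07 in DKO and 3.95 in WT and in the culture step by 4.34 in DKO and 4.91 in WT, and did not pass between genotypes.

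Among receptors, Acvr1, a type I receptor, and Eng (endoglin), a co-receptor, were higher in DKO Dex- cells (Acvr1 1.03, adjusted p = 0.00229, and Eng 1.06, adjusted p = 0.000418), and 0 of 11 passed in the other 4 states. Acvr1 rose in the PE step by 2.42 in DKO and 3.10 in WT, and Bmpr2, a type II receptor, by 1.12 in DKO and 1.44 in WT. Of 12 Smads and intracellular regulators, Smad1, which carries the signal, and the inhibitory Smad7 were lower in DKO Dex+ cells (Smad1 -1.07, adjusted p = 0.00303, and Smad7 -1.08, adjusted p = 0.00708). Tob1, an antiproliferative protein that binds Smads, was higher in DKO Dex- (1.63, adjusted p = 0.000591) and Dex+ cells (2.27, adjusted p = 1.38e-05). Of 7 other ligands Bmp6 alone passed between genotypes within a state, and was lower in DKO PE (-1.67 ± 0.34, adjusted p = 0.0116).

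Of 9 other genes that BMP signals raise, 0 were higher and 2 lower in DKO Dex+ cells, the homeobox gene Msx2 (-1.27, adjusted p = 0.00441) and the mesodermal factor Hand1 (-1.38, adjusted p = 0.00427). In Dex- cells 0 of the 9 passed, and in PE Tbx3 was lower (-1.05, adjusted p = 0.0379). In Flk1+ against ES cells 5 rose and 1 fell in each genotype, with Msx1 higher by 2.42 in DKO and 3.72 in WT, Msx2 by 2.56 in DKO and 2.35 in WT, and Prdm1 lower by -2.24 in DKO and -3.10 in WT. Beside these values, Id2 was higher in DKO in both cultures and Id1 in Dex- cells. The Id3 difference in Dex- cells was 1.08 (adjusted p = 0.0522). Whether BMP signals had a part in any of these differences was not tested. Of 7 E proteins and helix-loop-helix partners of Id proteins, Twist1 was higher (1.76, adjusted p = 0.00306) and Tcf3, an E protein, lower (-1.17, adjusted p = 0.00888) in DKO Dex- cells, and 0 passed in the other 4 states.

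**Figure D5:**
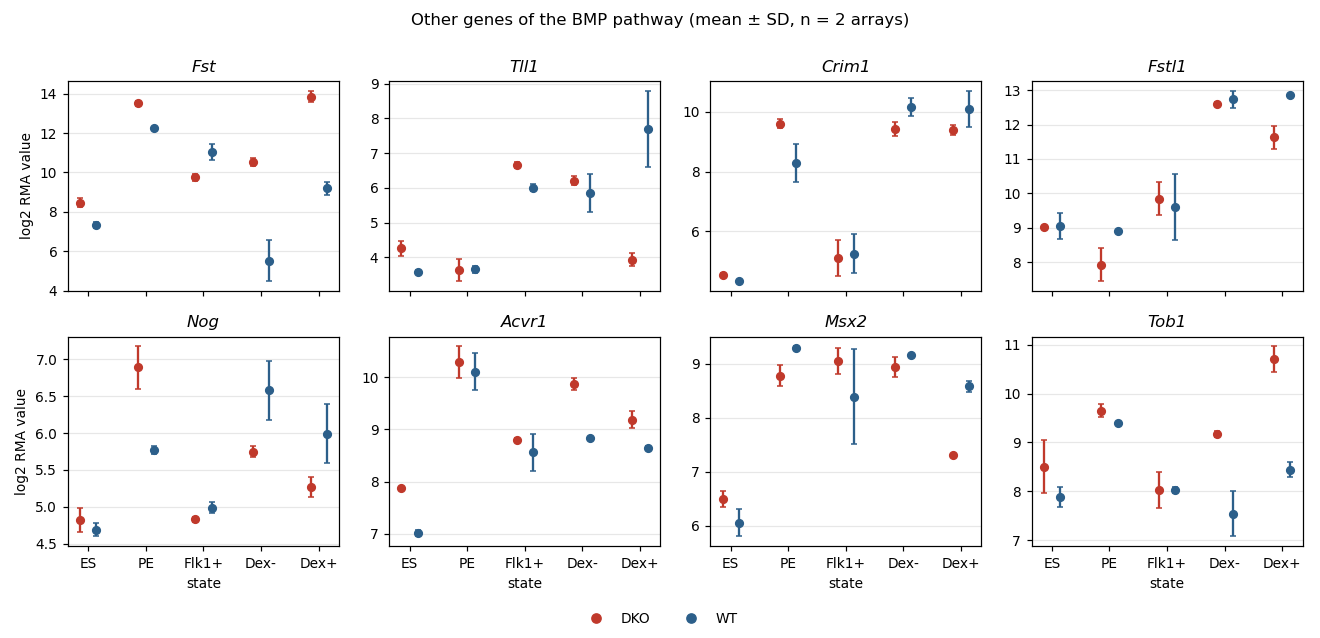
Log2 RMA values (vertical axis, mean ± SD of 2 arrays) of 8 other genes of the BMP pathway in 5 states (horizontal axis), with DKO left of WT. The vertical scale differs between panels. Fst lies at 10.54 in DKO and 5.52 in WT Dex- cells, and Tll1 at 3.94 in DKO and 7.70 in WT Dex+ cells.

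Over the 10 group means the members followed each other only in part, and the points share states and lines, so that the correlations are descriptions. Bmp2 and Bmper correlated at 0.91, Bmp5 and Bmp7 at 0.82, Id3 and Smad6 at 0.73 and Id1 and Id2 at 0.71. Bmp4 ran against Id2 (-0.69) and Bmper (-0.55). Among about 3552 genes whose group means spanned at least 2 log2 units, the closest to Bmper was Pdgfra (0.966), followed by Txndc11 (0.956) and Tlcd3a (0.953). The closest to Bmp4 were Dlg3 (0.95), the matrix protease gene Mmp2 (0.95) and Zfp334 (0.942), and those to Bmp2 were P3h2 (0.964), Stxbp5 (0.948) and Rora (0.926). Bmp5 was closest to Hoxb1 (0.973), Fabp7 (0.972) and Col14a1 (0.969), and Bmp7 to S1pr5 (0.988), Lmo1 (0.985) and Chst7 (0.981). Smad6 was closest to the scavenger receptor gene Ackr3 (0.964), Cdh2 (0.955) and Unc5b (0.955).

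The Id genes had less close neighbours. Id1 was nearest to Hook1 (0.901), Tbl1xr1 (0.897) and Emb (0.895), and Id2 to Ccnb1ip1 (0.94), Spdl1 (0.91) and Usp48 (0.904). Id3 was nearest to Notch1 (0.849), the BMP pseudoreceptor gene Bambi (0.84) and Car13 (0.83), and Id4 to Plbd1 (0.765), Nfxl1 (0.751) and Myo7a (0.749). None of the 3 nearest genes of any member was another of the 10.

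The order of the groups differed from gene to gene, and many neighbours in it overlapped in their arrays. Bmper went from DKO PE (12.59 ± 0.08) and DKO Dex+ cells (12.52 ± 0.17), which overlapped, down to WT Dex- (6.20 ± 0.06), DKO ES (5.23 ± 0.98) and WT ES cells (4.76 ± 0.30; SD, n = 2 each). Bmp4 went from WT Dex- (12.23 ± 0.04) and WT Dex+ cells (11.17 ± 0.74) down to WT PE (7.02 ± 0.07), DKO PE (6.72 ± 0.33) and DKO Dex+ cells (6.50 ± 0.30), and the last 2 overlapped. Id3 had DKO PE (6.40 ± 0.31) alone at the bottom, apart from the next group, WT ES cells (8.46 ± 0.32). Id2 had WT Dex- (6.77 ± 0.62) and WT Dex+ cells (6.35 ± 0.34) at the bottom, apart from DKO Flk1+ cells (8.80 ± 0.80).

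For 6 of the 10 genes there was 1 probe set, and for Bmp5, Bmp7, Id2 and Id4 there were 3. The others correlated with the main probe set over the 20 arrays at 0.96 and 0.97 for Bmp5, 0.94 and 0.44 for Bmp7, 0.90 and 0.26 for Id2 and 0.88 and 0.76 for Id4. The probe sets at 0.44 and 0.26 ranged over 0.69 and 0.62 log2 units, and were not followed further.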

How the data were processed

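RNA from 20 samples (50 ng each, labelled in 2 cycles) was hybridised to Affymetrix MOE430v2 arrays. The deposited values are log2 expression values that the authors made with RMA, whose version is not given in the sources used here. Of 45101 probe sets, 34958 had 1 gene symbol in the platform annotation, 932 had several and 9211, with 64 control probe sets, had none. Each of 18194 genes was read by its brightest probe set on average. Depth does not apply to arrays, and their number, 2 per group, limits the precision.

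A group-means model of the 10 groups was fitted with limma 3.58.1 (R 4.3.3, statmod 1.5.0; Python 3.11.15 and matplotlib 3.10.9 for figures), with 10 residual and 4.54 prior degrees of freedom, 21 comparisons and Benjamini-Hochberg adjustment over all genes. A gene passed at an adjusted p under 0.05 and a change of at least 2-fold. All tests were two-sided. An exact permutation test of 2 against 2 arrays cannot go below p = 0.333 and was not used. The significance analysis of microarrays named in the study's methods was not run. The labels call the arrays biological replicates, and p-values measure the spread between them.

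Same-numbered DKO and WT arrays deviated together (correlations of their replicate differences 0.19 in ES cells, 0.36 in PE, 0.31 in Flk1+, 0.18 in Dex- and 0.28 in Dex+ cells), so that the number was taken to pair the genotypes, and the fit with the replicate block is given where it changed a call.

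The 10 genes and the pathway and marker lists were chosen with earlier results of these data known. All 10 are named, other pathway genes by the size of their change among those that passed, and similar genes as the 3 with the highest correlation over group means. The fit was tested on simulated data. Alternatives were the mean of all probe sets, leaving out the lowest 40% of genes, centred arrays, an intensity trend, only the groups compared, blocks for scan day, chip lot and replicate, leaving out the parental lines or single arrays, and, added after seeing the data, the probe set with the largest range.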

Additional observations from a re-analysis of the deposited data

Results flagged for a closer look

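Several responses of these genes differed between groups by a test of the difference itself, and no cause was tested. The PE step of Id3 was lower in DKO than in WT cells by -3.22, and the culture step of Id2 higher by 3.25. The Dex step in mesoderm was lower than the PE step for Bmp2 (-2.81 in DKO and -4.50 in WT), Bmper (-3.84 in DKO and -3.95 in WT) and Id4 (-2.67 in DKO and -4.65 in WT). It was higher in DKO for Id1 (2.83), Id2 (1.90) and Id3 (3.49), and whether these differences between steps themselves differed between DKO and WT was not tested.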

How the results depend on the processing

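Of 68 calls of the 10 genes, 52 held in every setting, 50 with any single array left out and 49 in both. Of 3319 alternative values, 1 changed direction where the main or the alternative value passed. It was Bmp4 in WT Flk1+ against WT ES cells (-0.09), which was -1.64 without WT Flk1+ replicate 1 and 1.47 without WT Flk1+ replicate 2. Changes of direction where neither value passed were not counted. The cause of changed counts was not tested. ES cells were scanned on 1 day that held no other state, so that scan day cannot be told apart from state in comparisons with them. Between states on different chip lots the lot block rests on Flk1+ arrays, where lot and line cannot be told apart.

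Counts of the 10 genes that passed changed as follows. With the replicate block, which paired the genotypes, DKO against WT gave 3 in ES cells, 2 in PE, 1 in Flk1+, 5 in Dex- and 5 in Dex+ cells, and the steps 3 (PE), 1 (Flk1+), 3 (culture) and 1 (Dex). It added 14 calls and lost 0, and it was not run between states of 1 genotype, where the number is nested in the state. With the scan day as a block the counts were 1, 2, 1 and 5 in the first 4 of these states and 2 (PE), 2 (culture) and 1 (Dex) in the steps. With the chip lot as a block they were 1, 2, 1 and 5 there, with 2, 1, 4 and 1 in the steps, 4 for DKO PE against ES cells, 6 for DKO Dex- against Flk1+ cells and 5 for the WT Dex step minus PE step. Without the parental lines they were 4 for DKO against WT Flk1+ cells, 5 for DKO Dex- against Flk1+ cells, 2 for the Flk1+ step and 3 for the culture step. With only the groups compared they were 3 in ES cells and 2 in PE, 4 for WT Dex- against Flk1+ cells, 1 for WT Dex+ against Dex- cells, and 3 (PE), 0 (culture) and 1 (Dex) in the steps. Without the lowest 40% of genes, DKO against WT PE gave 2.

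With each array left out in turn, DKO against WT gave 0 to 0 in ES cells, 1 to 1 in PE, 0 to 3 in Flk1+, 2 to 4 in Dex- and 3 to 3 in Dex+ cells. PE against ES cells gave 4 to 6 in DKO and 3 to 3 in WT, Flk1+ against ES cells 5 to 7 in DKO and 6 to 7 in WT, and Dex- against Flk1+ cells 3 to 4 in DKO and 7 to 7 in WT. Dex+ against Dex- cells gave 2 to 4 in DKO and 1 to 2 in WT, and Dex+ cells against PE 3 to 3 in DKO and 5 to 6 in WT. The steps gave 1 to 1 (PE), 0 to 2 (Flk1+), 0 to 3 (culture) and 0 to 1 (Dex), and the Dex step minus the PE step 5 to 5 in DKO and 3 to 4 in WT.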
